A study of Mus musculus with 18 samples.

Results

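Cytosolic ribosomal proteins are the proteins that, with the ribosomal RNAs, build the 2 subunits of the ribosome outside mitochondria. Their genes were taken by symbol: Rpl or Rps followed by a digit, Rplp followed by a digit, and Rpsa, without the Rps6 kinases and without rows named as pseudogenes. The rule found 82 of the 14419 genes of the table. They comprise 42 proteins of the large subunit, 31 of the small subunit, the 3 stalk proteins Rplp0, Rplp1 and Rplp2, and 5 paralogs (Rpl7l1, Rpl22l1, Rpl36al, Rps4y2 and Rps27l). The last is Rps19bp1, which the symbol rule takes in although it is a protein that binds Rps19 and no ribosomal protein. Rpl41 and the paralogs Rpl3l, Rpl10l, Rpl39l and Rps4l were not analysed here.

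RNA was sequenced from sorted marrow cells of C57BL/6 mice, all adult males. They had received tamoxifen, which binds estrogen receptors and blocks or activates them depending on the tissue, or its vehicle, corn oil. No allele beside the strain is named. Treatment lasted 1 week for multipotent progenitors (MPPs) and 2 weeks for long-term (LT) and short-term (ST) haematopoietic stem cells, so population and duration cannot be told apart wherever MPPs are compared with the others. Each of the 6 groups (MPP oil, MPP tamoxifen, LT oil, LT tamoxifen, ST oil and ST tamoxifen) held 3 libraries, 18 in all, described as biological replicates. Values are normalised CPM, which is reads times a constant of each library, and they sum to 900541 to 1149320 per library. Levels compared between genes are also divided by transcript length in kilobases.

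All cells need ribosomes, and ribosomal protein genes are known for being expressed together. Their mRNAs start with a run of pyrimidines, the 5′ terminal oligopyrimidine (TOP) motif, through which mTORC1 and Larp1 control their translation. Haematopoietic stem cells are known for a lower rate of protein synthesis than the progenitors that they give rise to. Loss of 1 copy of several of these genes causes Diamond-Blackfan anaemia, a failure of red cell formation. Rpl5 and Rpl11, when not in a ribosome, bind Mdm2 together with the 5S ribosomal RNA and so stabilise p53.

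Reads in listed genes numbered 2728800 to 5279821 per library. Markers of haematopoietic stem cells and progenitors, such as Procr, Mecom, Cd34, Cd48 and Flt3, were listed, 11 of 11 measured. They summed to 3506 to 3919 normalised CPM in LT oil, 3366 to 3750 in MPP oil and 1913 to 2599 in ST oil. None of them was at 0. A sum over such a mixed list does not rank the populations by how like stem cells they are. LT tamoxifen library A stood apart: its mitochondrial ribosomal RNAs took 25.4% of the total, against 17.7% to 18.7% in the other LT libraries. Its counts differed from those of LT tamoxifen libraries B and C by a chi-square of 27.1 and 26.1 per degree of freedom, against 2.79 to 10.6 for the other pairs of libraries of 1 group. Results that it touches are given with and without it. The sample titles number the ST libraries anew, apart from a joint numbering of MPP and LT libraries, and do not say whether they were prepared apart. If they were, ST cells and that set of libraries cannot be told apart.

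The summed level of the 82 genes was lowest in LT and MPP cells and highest in ST cells. In oil it was 29423, 28901 and 28417 normalised CPM in the LT libraries, 28306, 28209 and 32188 in the MPP libraries, and 51531, 63787 and 49492 in the ST libraries. Every ST library, in oil or tamoxifen, lay above every LT and MPP library. The mean in ST oil was 1.90 times that in LT oil and 1.86 times that in MPP oil, and the means of MPP and LT oil differed by a factor of 1.02. The genes took 5.77% ± 0.64 (SD, n = 3) of the total in ST oil, 3.08% ± 0.043 in LT oil and 2.84% ± 0.23 in MPP oil. In sorted bulk samples, fewer cells of a type and less RNA per cell cannot be told apart. With tamoxifen the sums were 38904, 31003 and 33587 in MPPs (libraries 1, 2 and 3), 19540, 35398 and 39297 in LT cells (A, B and C), and 50416, 45046 and 49434 in ST cells.

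**Figure D1:**
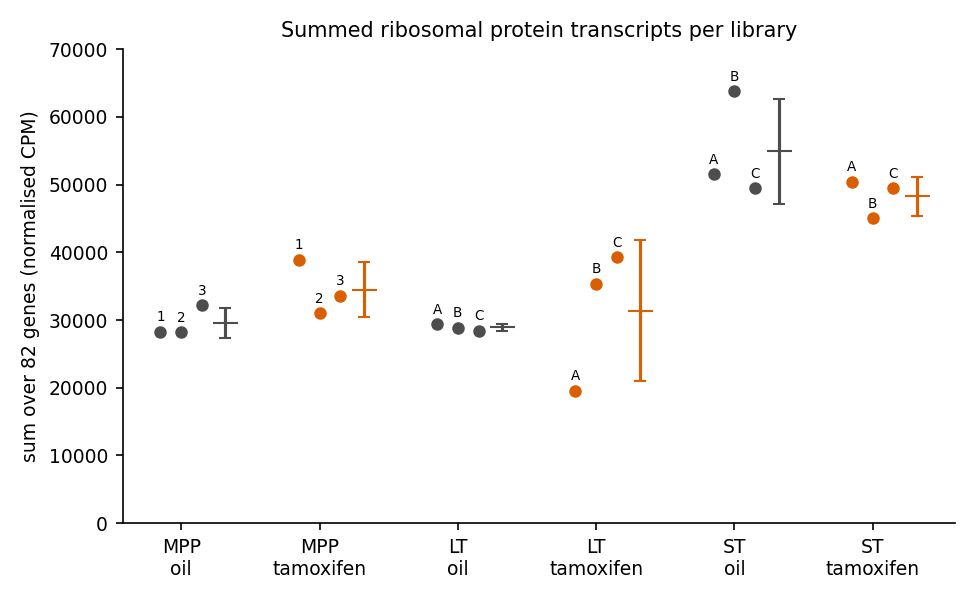
Summed level of the 82 genes in normalised CPM (y axis, from 0) in each library of the 6 groups (x axis), with letters or numbers naming the library and bars giving the mean ± SD of 3 libraries. The ST libraries sit between 45046 and 63787, above all others, and LT tamoxifen library A is the lowest at 19540.

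To ask how the populations differ without tamoxifen, ST oil was compared with LT oil. Of the 82 genes 64 were higher in ST cells, where 12.5% of all genes were called higher, and 0 were lower, where 16% of all genes were (limma, adjusted p under 0.05 over all genes). The median log2 fold change was 1.01, against 0.01 over all genes, and 81 of 82 lay above 0, as did 50.5% of all genes. In 77 genes every ST oil library lay above every LT oil library, against 21.4% of all genes. By class, 36 of 42 large subunit genes, 23 of 31 small subunit genes, 1 of 3 stalk genes and 3 of 5 paralogs rose, as did Rps19bp1. Leaving out 1 library at a time gave 58 to 76 genes called.

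The gene with the smallest p was Rpl36al, an expressed copy of Rpl36a, at 141, 138 and 109.6 in LT oil and 376, 428 and 317 in ST oil (log2 fold change 1.52, SE 0.15, limma adjusted p = 5.79e-08). Rpl36a itself stood at 190.2, 176 and 166 in LT oil and at 555, 682 and 430.2 in ST oil (1.62, SE 0.19, adjusted p = 1.40e-06). The proteins of this pair are nearly alike, so the authors' counting could have split their reads unevenly. Rpl17, which lines the exit tunnel of the large subunit, stood at 502, 496 and 465 in LT oil and 1118, 1466 and 1087 in ST oil (1.31, SE 0.14, adjusted p = 8.34e-08). For all 3 genes the lowest ST oil library was more than 2-fold above the highest LT oil library.

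Other large subunit proteins behaved alike. Rpl31, at the rim of the exit tunnel, stood at 163, 160.3 and 143 in LT oil and 386, 537 and 343 in ST oil (1.41, limma adjusted p = 3.27e-07). Rpl26 stood at 177, 176 and 166 in LT oil and at 463, 580 and 360.1 in ST oil (1.40, adjusted p = 4.47e-06). In both genes the groups were far apart, and ST oil library B was the highest. Library B was the highest of all 18 libraries for 60 of the 82 genes, and without it the median log2 fold change was 0.90 and 58 genes were called.

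Among small subunit proteins, Rps25, which internal ribosome entry sites of several mRNAs need, rose from 456, 457 and 420.5 in LT oil to 1177, 1404 and 985 in ST oil (log2 fold change 1.40, limma adjusted p = 1.48e-07). Its ST oil libraries lay wholly above those of LT oil. The small subunit gene with the largest change was Rps24, mutated in Diamond-Blackfan anaemia, with a log2 fold change of 1.60 (SE 0.23, adjusted p = 6.73e-05). Rps24 is named here because of its values.

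Not every gene took part. Rpl10, which closes late maturation of the large subunit, was the 1 gene of 82 below 0, at 778, 779.99 and 807 in LT oil and 595, 595 and 666 in ST oil (log2 fold change -0.35, SE 0.46, limma adjusted p = 0.624). Its 3 ST oil libraries lay below all LT oil libraries, and a fit of the groups compared alone called it lower (adjusted p = 0.0107). The SE, shared over groups, contains the low LT tamoxifen library A, at 185. Its pseudogene row Rpl10-ps1 held 39.4% of its level, so reads of the pair may be shared. That row had a log2 fold change of 0.98 (limma adjusted p = 0.101), opposite in sign. A shift of reads between the 2 rows was not tested. Rps2 (0.22, adjusted p = 0.684) and Rpl35a (0.37, adjusted p = 0.666) overlapped between the groups. For Rpl35a the LT oil values were 294, 270.4 and 1015, the last being the highest of the 18 libraries.

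The stalk proteins, through which elongation factors reach the ribosome, showed smaller differences. Rplp0, the base of the stalk, rose from 483, 490.3 and 458 in LT oil to 612, 718 and 649 in ST oil (log2 fold change 0.46, SE 0.14, limma adjusted p = 0.0109). Rplp1 and Rplp2 had log2 fold changes of 0.66 (adjusted p = 0.415) and 0.64 (adjusted p = 0.187), and did not pass. In both, the ST oil libraries lay above the LT oil libraries. Rplp0 varied least over the 18 libraries of the 82 genes, with 1.79-fold between the highest and lowest.

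Paralogs that can stand in for a ribosomal protein were compared with the main gene of each pair. Rpl22l1 rose from 76.2, 81.4 and 76.5 in LT oil to 182, 240.1 and 154 in ST oil (log2 fold change 1.26, limma adjusted p = 0.000250), and Rpl22 rose beside it (1.11, adjusted p = 0.000255). Rpl22l1 stood at 23.1% ± 1.77 of Rpl22 in LT oil and 25.8% ± 2.12 in ST oil (SD, n = 3), ranges that overlap. Rps27l, a p53 target, rose from 25.95, 28.4 and 21.6 to 52.5, 78.7 and 48.8 (1.19, adjusted p = 0.000599), and stood at 4.99% ± 0.912 of Rps27 in LT oil and 4.64% ± 0.123 in ST oil. Rpl7l1 (0.33, adjusted p = 0.290) and Rps4y2 (0.26, adjusted p = 0.705) did not pass. Rps4y2 had 157 reads in all 18 libraries together.

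A few members with roles beyond the ribosome's core, or bound to it, were read whatever their values. Rpl38, needed for translation of Hox mRNAs in the embryo, rose from 136, 129 and 137 in LT oil to 317, 402 and 275 in ST oil (log2 fold change 1.29, limma adjusted p = 0.00185). Rps27a, a fusion with ubiquitin, overlapped between 67.4, 71.7 and 85.9 in LT oil and 120.0, 142 and 79.3 in ST oil (0.56, adjusted p = 0.267). Rpsa, also known as the laminin receptor, did not pass (0.59, adjusted p = 0.0951), although its ST oil libraries (562, 599.6 and 478) lay above those of LT oil (354, 384 and 346). Rps19bp1 was low, at 5.31, 4.44 and 3.48 in LT oil and 8.39, 8.12 and 7.77 in ST oil, and rose (0.76, adjusted p = 0.0389).

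Per kilobase of transcript, the order of the genes was broad. In LT oil the highest were Rps27 at 1480 normalised CPM per kilobase, Rpl4 at 1244, Rps4x at 1141 and Rps24 at 1125. The lowest were Rps4y2 at 2.34, Rps19bp1 at 5.27, Rpl7l1 at 14.2 and Rpl5 at 34.5. In ST oil Rps27 (3731) and Rps24 (3469) stood above Rpl32 (2903) and Rps3a (2113). Transcript lengths are medians over the transcripts of a later annotation, which can differ from those used in these cells. Rpl5 was placed at 2000 to 3000 bases and Rps15a at over 5000, so the low place of Rpl5 rests on that length. Pseudogenes can take reads: 4 of 33 rows named as pseudogenes had a mean above their parent's, such as Rpl15-ps3 at 195% of Rpl15 and Rps16-ps2 at 188% of Rps16. Levels of such genes are uncertain.

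**Figure D2:**
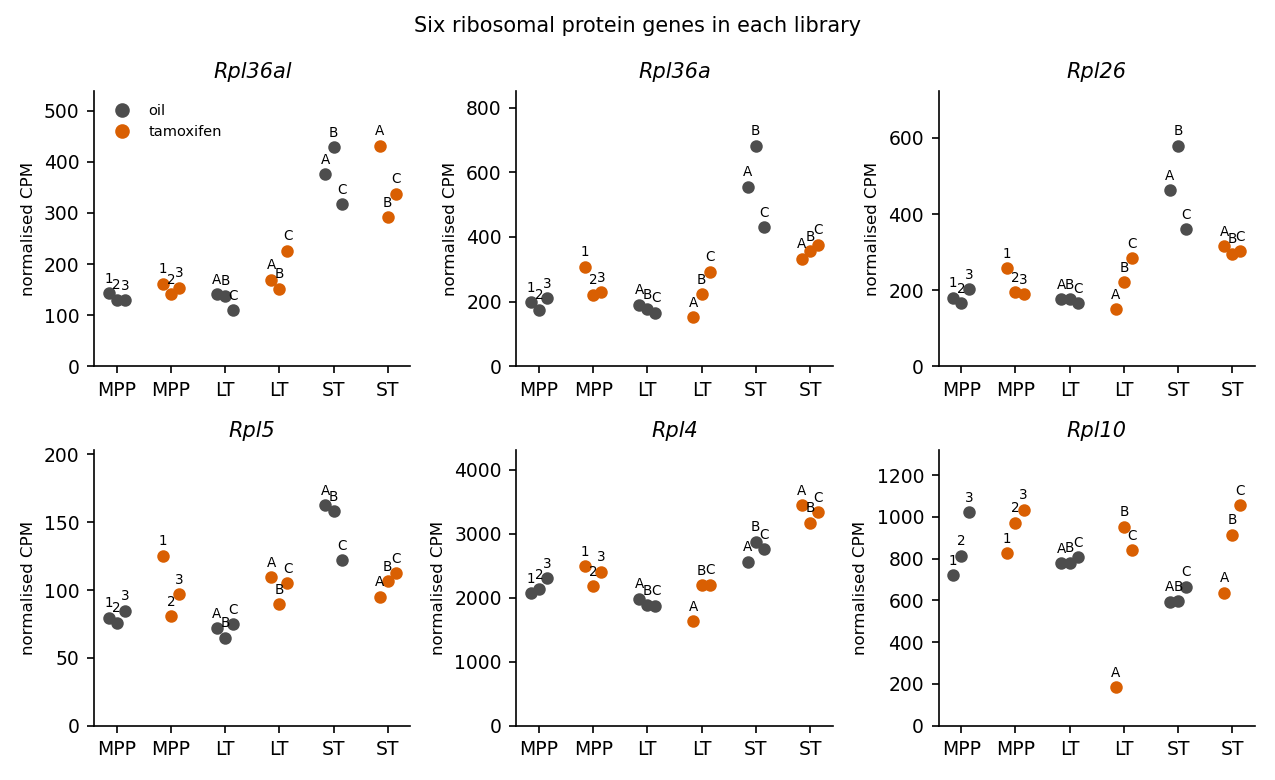
Normalised CPM (y axes, each from 0) of 6 genes in each library (points, named by replicate number or letter), by population (x axes) and treatment (colour). Rpl36al, Rpl36a, Rpl26 and Rpl5 are higher in ST oil than in LT or MPP oil, whereas Rpl10 is lower there, at 595 to 666.

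MPPs were then set beside the stem cells. Against ST oil, 64 genes were lower in MPP oil, where 13.9% of all genes were called lower, and 0 were higher, with a median log2 fold change of -0.99. Led by Rpl36al (-1.46, limma adjusted p = 1.05e-07), Rpl17 (-1.22, adjusted p = 2.14e-07), Rpl31 (-1.38, adjusted p = 4.21e-07) and Rps25 (-1.18, adjusted p = 1.47e-06), the list also held Rpl12 of the stalk base, Rps7 and Rpl36a. This comparison shares the ST oil libraries with the comparison above, so the likeness of the 2 lists is not independent. Against LT oil, 0 of the 82 were called in MPP oil by limma, where 14.8% of all genes were called. No gene of the 82 had an unadjusted p under 0.05, edgeR and DESeq2 gave 0 each, and a fit of the groups compared alone gave 7 higher and 5 lower, where it called 23.9% of all genes. The median log2 fold change was 0.03. The smallest p was that of Rpl35a (-0.94, adjusted p = 0.324), which rests on LT oil library C.

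The difference between ST and LT oil moved with transcript length among other genes, and among ribosomal protein genes of up to 2000 bases. The 82 genes have short transcripts, with a median of 844.5 bases against 2643 for other genes. Between ST and LT oil, other genes of 500 to 800 bases had a median log2 fold change of 0.54 (613 genes), and those over 5000 bases a median of -0.40 (1845 genes). The 25 ribosomal protein genes of 500 to 800 bases had a median of 1.06, and the 11 of up to 500 bases a median of 1.24, against 0.43 for other genes of that length. The classes of 2000 to 3000, 3000 to 5000 and over 5000 bases held 3, 2 and 1 ribosomal protein genes. Their medians were 1.05, 1.10 and 1.23, against 0.02, -0.22 and -0.40 for other genes. Once the length and GC trend of the other genes was removed in each library, 41 genes were called higher, 0 lower, and the median was 0.57, where 19.3% of all genes were called. Rpl36al (1.00, limma adjusted p = 3.53e-06) and Rps25 (0.92, adjusted p = 8.56e-06) still rose then, while Rpl10 had a log2 fold change of -0.84 (adjusted p = 0.227).

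**Figure D3:**
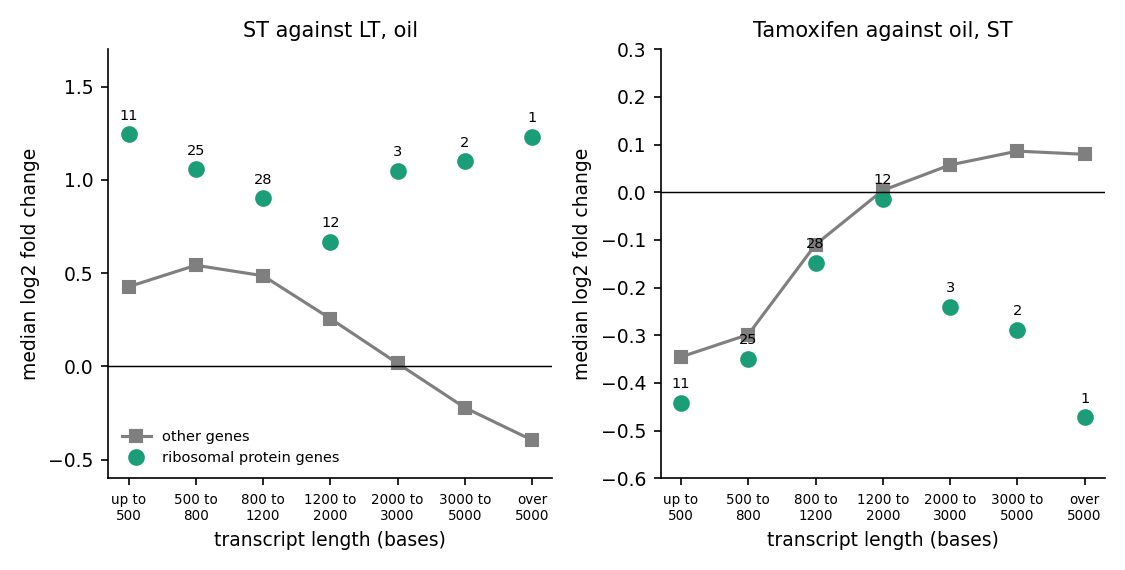
Median log2 fold change (y axes) by transcript length class in bases (x axes) for the ribosomal protein genes (circles, with their number) and for other genes (squares), between ST and LT oil (left) and between tamoxifen and oil in ST cells (right). In the left panel the circles lie above the squares in each class, with 1.06 against 0.54 at 500 to 800 bases. In the right panel the circles of the classes up to 2000 bases lie near the squares. In its classes over 2000 bases, with 3, 2 and 1 genes, the circles lie below 0 and the squares above it.

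In the tamoxifen groups, ST and LT cells differed in the same direction, with 44 genes called higher in ST cells, 0 lower, and a median of 0.66, where 23.5% of all genes were called. Without LT tamoxifen library A these were 32 genes and 0.35, with 18.9% of all genes called. Markers of other cells moved with the populations as well. Neutrophil markers, 10 of 10 measured, summed to 1246 to 1702 in ST oil, 904 to 1683 in MPP oil and 120 to 189 in LT oil. Erythroblast markers, 15 of 15 measured, summed to 711 to 909 in ST oil and 2306 to 2834 in LT oil. None of these 25 markers had 0 reads in a group. Their part in the difference between ST and LT cells, and that of transcript length, was not tested beyond the values given.

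Short windows at the annotated starts are shown, since the genes moved together and their known shared features lie there. RefSeq promoters of 300 bases (250 before the start and 50 after, build GRCm38.p6) matched 60 of the 82 genes, with 71 promoters. A run of at least 6 C or T bases within 10 bases of the start, on the gene's strand, was found in 32 of 71 (45.1%), against 20.2% of all 32851 promoters. In the windows that follow, from 10 bases before the start to 20 after, capitals mark that run, and the last 2 have none.
Rpl38: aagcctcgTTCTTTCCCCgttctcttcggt
Rpl12: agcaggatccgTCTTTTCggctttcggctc
Rpl31: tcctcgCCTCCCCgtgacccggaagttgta
Rps18: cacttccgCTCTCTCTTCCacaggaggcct
Rps27: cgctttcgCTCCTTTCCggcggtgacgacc
Rpl36a: cccaggcaccgcctataaacttccgttgcg
Rpl10: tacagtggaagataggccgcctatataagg
These lie at chr11:114668570-114668599 (plus strand, Rpl38), chr2:32961702-32961731 (plus strand, Rpl12), chr1:39367841-39367870 (plus strand, Rpl31), chr17:33955646-33955675 (minus strand, Rps18), chr3:90213629-90213658 (minus strand, Rps27), chrX:134585644-134585673 (plus strand, Rpl36a) and chrX:74270806-74270835 (plus strand, Rpl10). The 31 genes with the run had a median log2 fold change of 0.91 between ST and LT oil and the 29 without it one of 1.02, so a run in this window did not go with a larger difference. Annotated starts can miss the start used in these cells.

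Ribosomal protein promoters are also known for sites of the ETS factor GABP and of YY1. The 8 letters CCGGAAGT, an ETS core, occurred on either strand in 11 of 71 promoters (15.5%), against 3.89% of all. The letters AAGATGGC, a YY1 core, occurred in 8 of 71 (11.3%), against 2.75% of all. Of the 11 genes that hold the ETS letters, the 3 with the smallest p between ST and LT oil are shown, with the letters in capitals.
Rpl26: aacttacagaaCCGGAAGTcgcgtgtagtt
Rpl31: ctccccgtgacCCGGAAGTtgtacggctac
Rps25: cacccattgccCCGGAAGTactctctcgag
They lie at chr11:68901559-68901588 (plus strand, Rpl26), chr1:39367848-39367877 (plus strand, Rpl31) and chr9:44407630-44407659 (plus strand, Rps25), after the start in Rpl26 and Rpl31 and before it in Rps25. The 11 genes with the letters had a median log2 fold change of 1.19 between ST and LT oil and the other 49 matched genes one of 0.93. This is a description, with no test.

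To ask what tamoxifen changed, each population was compared with its own oil group. In ST cells 4 of the 82 genes (4.88%) fell, near the 3.6% of all genes called lower. Higher calls numbered 0, where 6.01% of all genes were called higher. All 4 code for large subunit proteins: Rpl36a, Rpl5, Rpl26 and Rpl17. Small subunit genes moved alike, with 28 of 31 below 0 (median log2 fold change -0.25), against 31 of 42 large subunit genes (median -0.29). At an unadjusted p under 0.05 in limma, 8 small and 8 large subunit genes were lower and 1 large subunit gene higher. That is 20.7% of the 82, against 25.1% of all genes in either direction. Without LT tamoxifen library A small subunit genes passed too, such as Rps14 and Rps27 (limma adjusted p = 0.000456 and 0.00623). The median log2 fold change of the 82 genes was -0.25, against 0.01 over all genes, and 65 lay below 0, as did 49.5% of all genes. In 24 genes the tamoxifen libraries lay below all oil libraries, against 12.2% of all genes, and in 3 above, against 14.8% of all genes. The summed level was 0.879 times that in oil, with groups that overlapped. As a share of the total it was 4.65% ± 0.26 (SD, n = 3), from 4.36% to 4.84%, against 5.16% to 6.43% in oil, with no overlap.

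Rpl36a stood at 555, 682 and 430.2 in ST oil and at 333, 356 and 376 with tamoxifen (log2 fold change -0.62, SE 0.19, limma adjusted p = 0.0370). Rpl5, the 5S RNA partner that can bind Mdm2, stood at 163, 158 and 122 in oil and 95.2, 106.7 and 112 with tamoxifen (-0.48, SE 0.15, adjusted p = 0.0384). Its partner Rpl11 overlapped between the groups (-0.16, adjusted p = 0.707). Rpl26, which also takes part in translation of p53, stood at 463, 580 and 360.1 in oil and 316, 296 and 303 with tamoxifen (-0.59, SE 0.18, adjusted p = 0.0403). Rpl17 stood at 1118, 1466 and 1087 in oil and 925, 854 and 924 with tamoxifen (-0.43, SE 0.13, adjusted p = 0.0425). In each of the 4 the highest tamoxifen library lay below the lowest oil library.

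These calls were near the threshold and moved with the libraries of the fit. Leaving out ST oil library A or B, or any 1 of the ST tamoxifen libraries, left 0 genes called, and without ST oil library B the adjusted p of the 4 ran from 0.126 (Rpl5) to 0.229 (Rpl17). Leaving out MPP oil library 1 or LT oil library A or B left 2 genes called, and leaving out LT tamoxifen library C gave 7. Without LT tamoxifen library A, whose spread enters the shared fit, 22 were lower and 3 higher, where 14.7% of all genes were called. The 3 were Rpl4, Rpl10a and Rpl10, of which Rpl10a and Rpl10 were chosen after their values were seen. A fit of the ST groups alone gave 13 lower (7.73% of all genes called), DESeq2 8 (11.2%) and edgeR 5 (8.15%). With the length and GC trend of other genes removed, the median was -0.0788, and Rpl5 alone fell (-0.52, limma adjusted p = 0.0182). Rpl4 (0.34, limma adjusted p = 0.0243), Rpl7a (0.38, adjusted p = 0.0256) and Rpl29 (0.38, adjusted p = 0.0493) rose. The annotated length of Rpl5 lies in the class of 2000 to 3000 bases, and the removal left it near its -0.48 before. Rpl36a moved from -0.62 to -0.34 and Rpl26 from -0.59 to -0.35. Which genes pass then depends on the annotated lengths and GC. Other genes of up to 500 bases had a median of -0.35, and the 11 ribosomal protein genes of that length one of -0.44. In the classes over 2000 bases other genes had medians of 0.06, 0.09 and 0.08. The 3, 2 and 1 ribosomal protein genes there had medians of -0.24, -0.29 and -0.47.

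Members of the set differed among themselves. Rpl4 had the highest normalised CPM of the 82 in ST cells where values are not divided by transcript length. It stood at 2563, 2871 and 2758 in oil and 3448, 3169 and 3331 with tamoxifen, with no overlap (log2 fold change 0.28, SE 0.11, limma adjusted p = 0.114). As a share of the summed level it took 5.02% ± 0.537 in oil and 6.87% ± 0.15 with tamoxifen (SD, n = 3). Rps27, a zinc finger protein of the small subunit, took 2.32% ± 0.231 in oil and 1.56% ± 0.0491 with tamoxifen, and Rpl39, the shortest protein of the exit tunnel, 1.74% ± 0.256 and 1.20% ± 0.0643. Neither passed as a level (-0.75, adjusted p = 0.154, and -0.70, adjusted p = 0.0594). The sum of large subunit genes over that of small subunit genes was 1.29 ± 0.0242 in ST oil and 1.42 ± 0.0304 with tamoxifen, and lay between 1.35 and 1.42 in the means of the other 4 groups. Rps27l stood at 4.52% to 4.77% of Rps27 in ST oil and 7.17% to 7.79% with tamoxifen.

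Genes mutated in Diamond-Blackfan anaemia, a list of 23, were all measured. Between ST and LT oil 20 were higher, where 12.5% of all genes were, and 0 lower (median 1.146). All 23 belong to the 82 genes, of which 64 were higher, with a median of 1.01. With tamoxifen in ST cells 3 fell, Rpl5, Rpl26 and Rpl17, where 3.6% of all genes did, and 20 of 23 lay below 0 (median -0.37). These 3 are among the 4 genes called above, and 65 of the 82 lay below 0 (median -0.25). Rps19, the gene most often mutated in the disease, stood at 563, 667 and 457 in ST oil and 462, 409.8 and 442 with tamoxifen (log2 fold change -0.35, limma adjusted p = 0.493). Rps14, lost in the 5q- syndrome, stood at 538, 701 and 581 in oil and 399, 385 and 400.5 with tamoxifen, without overlap (-0.61, adjusted p = 0.5005). Its spread is that of LT tamoxifen library A, where it stood at 64.1, and without that library it passed (adjusted p = 0.000456).

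In LT cells 0 of the 82 genes were called with tamoxifen by limma, where 0.416% of all genes were called. At an unadjusted p under 0.05 there were 9, all higher, against 13.5% of all genes in either direction. Of the 82, edgeR called 0 and DESeq2 4, where DESeq2 called 6.47% of the genes it gave an adjusted p. The log2 fold change of 51 lay above 0, as did 48.1% of all genes. The median was 0.08, and -0.14 without library C. The smallest p values were those of Rpl27a (0.64, adjusted p = 0.0856), Rpl5 (0.51, adjusted p = 0.106) and Rpl31 (0.53, adjusted p = 0.120). For each of them LT tamoxifen library A was the highest LT library. Without it their limma adjusted p was 0.221, 0.199 and 0.310, and other members had smaller p values. Rpl27a stood at 63.9, 62.9 and 58.4 in oil and 119, 77.5 and 97.3 with tamoxifen, and Rpl5 at 72.0, 64.7 and 74.8 in oil and 109.3, 89.5 and 105 with tamoxifen. Their groups did not overlap.

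LT tamoxifen library A lay below all 5 other LT libraries in 73 of 82 genes, against 30.6% of all genes, and 26 of the 82 were over 1 lower on the log2 scale. Rplp1 stood at 73.0 there and at 309.9 to 546 in the other LT libraries, Rps14 at 64.1 against 291 to 434, and Rpl10 at 185 against 778 to 953. Rpl27a, Rpl31 and Rpl5 lay above all the others. Without this library all 82 genes lay above 0, the median log2 fold change was 0.43, and in 72 both tamoxifen libraries lay above all oil libraries, against 17.3% of all genes. Then 4 genes rose, where 0.354% of all genes were called, among them Rpl7a (limma adjusted p = 0.0196), Rpl15 (0.0377) and Rps18 (0.0486). Rpl7a stood at 533, 526 and 532 in oil and 489, 797 and 728 with tamoxifen, so that library A lay below and the other 2 above the oil range. Leaving out library B in its place also gave 4 genes called, all higher, with 2.29% of all genes called. The genes named were chosen after their values were seen.

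**Figure D4:**
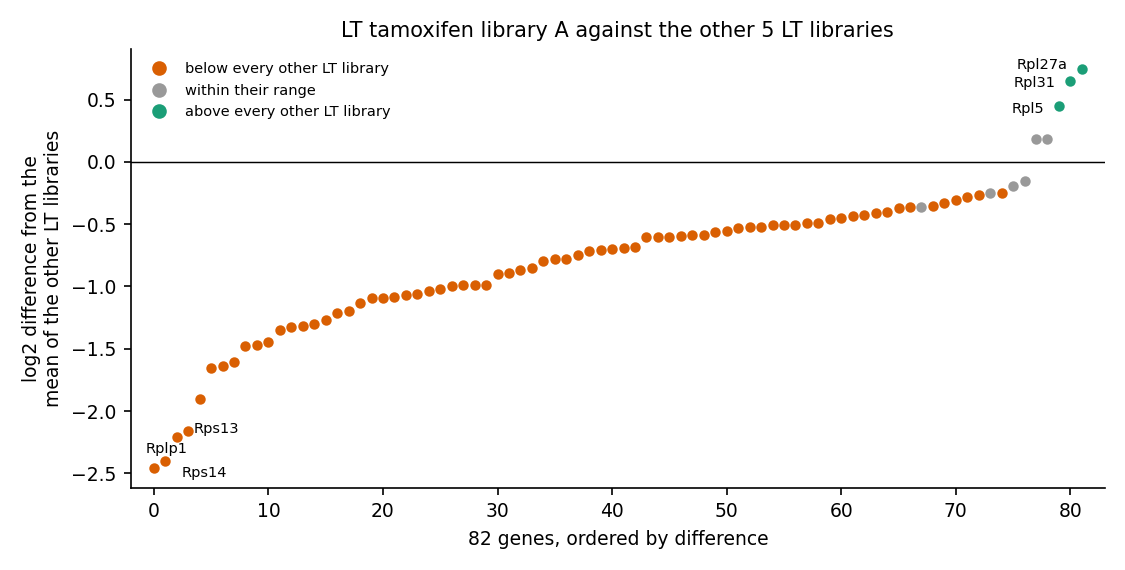
Log2 difference (y axis) of LT tamoxifen library A from the mean log2 level of the other 5 LT libraries for each of the 82 genes, in order (x axis). The library lies below all others in 73 genes, lowest for Rplp1, Rps14 and Rps13, and above all in Rpl5, Rpl31 and Rpl27a.

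In MPPs 0 genes were called with tamoxifen by limma, where 0.0555% of all genes were called. At an unadjusted p under 0.05 there were 5, all higher, against 5.68% of all genes in either direction, and edgeR and DESeq2 gave 0 each. The log2 fold change of 80 of 82 lay above 0, as did 50% of all genes, with a median log2 fold change of 0.24, and in 20 the tamoxifen libraries lay above all oil libraries, against 7.66% of all genes. Rpl27a stood at 51.7, 60.3 and 63.0 in oil and 93.5, 79.96 and 80.6 with tamoxifen (0.53, SE 0.17, adjusted p = 0.584). Rplp0 stood at 401, 424 and 427 in oil and 575, 485 and 524 with tamoxifen (0.34, SE 0.14, adjusted p = 0.828), and Rps7 at 246, 258 and 339 in oil and 418, 315 and 356 with tamoxifen (0.37, adjusted p = 0.842). In Rpl27a and Rplp0 the groups did not overlap. Without MPP tamoxifen library 1, the highest in the sum, the median was 0.13.

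The effects of tamoxifen were compared between populations by interaction. For ST minus LT cells 0 of the 82 genes were called by limma, where 0.0555% of all genes were called, with 17 at an unadjusted p under 0.05, all negative, against 12.9% of all genes. The smallest p was that of Rpl5 (difference of log2 fold changes -0.997, SE 0.21, adjusted p = 0.0691). DESeq2 called 5 genes (1.54% of all) and edgeR 0, and without LT tamoxifen library A 22 were called, all lower in ST cells, with 0.846% of all genes called. For ST minus MPP cells 0 were called, where 0.00694% of all genes were called, with 19 at an unadjusted p under 0.05, against 12.1% of all genes, and Rpl5 again had the smallest p (-0.79, adjusted p = 0.157). DESeq2 called 5 there (3.95% of all) and edgeR 0, and without LT tamoxifen library A limma called 11, all lower in ST cells, with 1.14% of all genes called. For LT minus MPP cells 0 were called among the 82 and among all genes, 1 gene, Rpl31, had an unadjusted p under 0.05 (0.46, adjusted p = 0.867), and edgeR and DESeq2 gave 0 each.

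**Figure D5:**
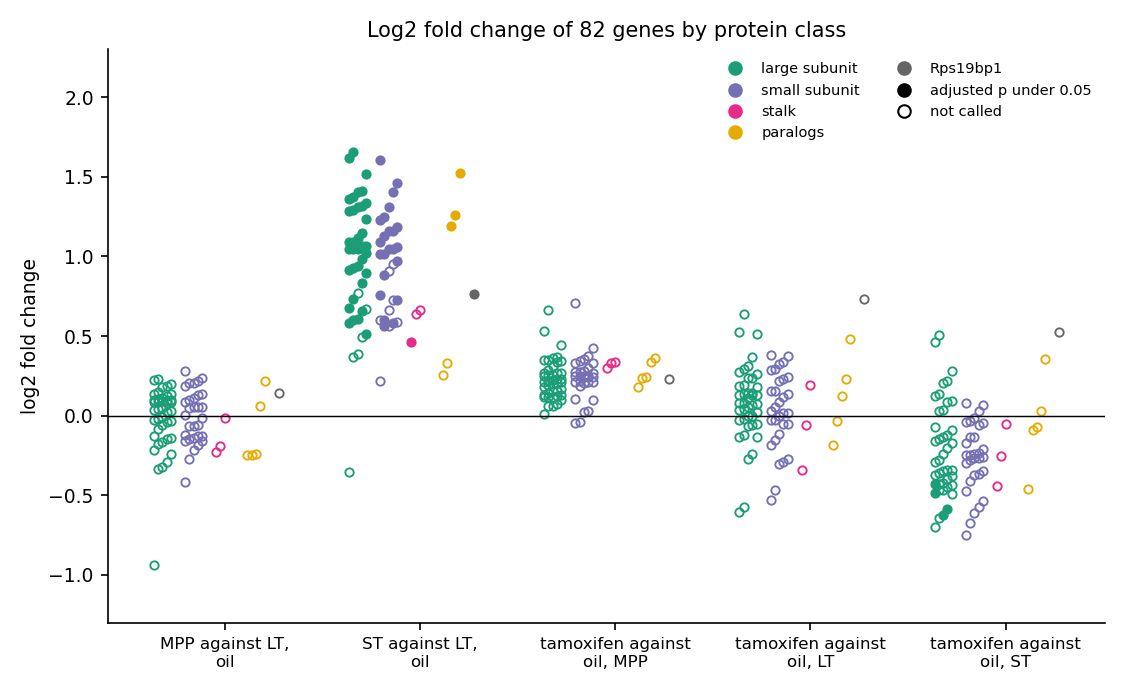
Log2 fold change (y axis) of each of the 82 genes in 5 comparisons (x axis), by protein class (colour), with filled points for an adjusted p under 0.05 in limma. In ST against LT oil 64 points are filled and 81 lie above 0. With tamoxifen in ST cells 4 large subunit points are filled, below 0.

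Other ribosomal proteins, outside the symbol rule, were read beside the 82. Gnb2l1, the scaffold protein Rack1, had a log2 fold change of 0.51 between ST and LT oil (adjusted p = 0.138). Fau, a fusion with Rps30, was close to 0 in LT tamoxifen library A (0.149) and between 29.3 and 86.1 in the other LT libraries.

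Other genes with TOP mRNAs, mostly translation factors, were listed, 27 of 27 measured. Between ST and LT oil 11 were higher and 7 lower, where 12.5% of all genes were called higher and 16% lower. The elongation factor gene Eef1b2 (log2 fold change 1.28, limma adjusted p = 2.50e-07) and Naca, of the nascent chain complex (1.173, adjusted p = 5.74e-08), rose, while Eef2, the translocation factor (-0.88, adjusted p = 2.11e-05), and Pabpc4, a poly(A) binding protein (-0.84, adjusted p = 1.51e-05), fell. Of the 11 higher, 10 had a known transcript length, with a median of 1232 bases, and the 7 lower had a median of 3089. With tamoxifen in ST cells 8 rose, where 6.01% of all genes did, and 0 fell. The 8 had transcripts of 1942 to 5125 bases. Eef2 stood at 650.2, 879 and 1094 in ST oil and 1440, 1285 and 1309 with tamoxifen (0.65, adjusted p = 0.00331). Ipo5 (0.80, adjusted p = 0.000221) and Pabpc4 (0.74, adjusted p = 0.000829) had the smallest p values. In LT cells and in MPPs 0 passed.

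Chaperones and importins that carry new ribosomal proteins, 17 of 19 measured, included 6 that rose in ST cells with tamoxifen, where 6.01% of all genes did, and none that fell. The importin gene Ipo5 stood at 145, 162 and 165 in oil and 237, 291 and 302 with tamoxifen. Kpnb1, importin beta, stood at 294, 338 and 349.6 in oil and 526, 509 and 491 with tamoxifen (log2 fold change 0.64, limma adjusted p = 0.00293). Heatr3, which brings Rpl5 to the nucleus, stood at 42.3, 29.7 and 49.4 in oil and 57.8, 66.4 and 78.7 with tamoxifen (0.75, adjusted p = 0.00401). In each the groups did not overlap. Between ST and LT oil 4 of the 17 were lower and 0 higher, against 16% and 12.5% of all genes. Heatr3, Kpnb1 and Ipo5 were among the lower ones. None of the 17 passed with tamoxifen in LT cells or MPPs.

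Genes that control translation of ribosomal protein mRNAs filled 25 rows, and with tamoxifen in ST cells 6 rose and 2 fell, against 6.01% and 3.6% of all genes. Larp1, the TOP mRNA binding protein, stood at 207, 202 and 204 in oil and 309.6, 287 and 297 with tamoxifen (log2 fold change 0.54, limma adjusted p = 0.00172), and Larp4b rose too (0.55, adjusted p = 0.00654). Tia1, a stress granule protein that binds TOP mRNAs, fell from 334, 276 and 327 to 221, 217 and 219.7 (-0.50, adjusted p = 0.00655). Between ST and LT oil 4 rows were higher and 10 lower, against 12.5% and 16% of all genes. Larp1 was lower there (-0.76, limma adjusted p = 3.66e-06). Of 13 measured genes of ribosome rescue, Abce1, which splits ribosomes, rose in ST cells with tamoxifen from 131, 150.3 and 143 to 204, 249 and 233 (0.68, adjusted p = 0.000733).

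RNA makeup moved with treatment in ST cells as well. The nuclear RNA Malat1 stood at 8603, 7986 and 7069 in ST oil and 4522, 3606 and 3751 with tamoxifen (log2 fold change -0.996, limma adjusted p = 8.37e-05). The median deviation of other short transcripts (up to 1000 bases) from their mean over all libraries was 0.49, 0.52 and 0.32 in ST oil and 0.21, 0.12 and 0.20 with tamoxifen on the log2 scale. Neutrophil markers summed to 1246 to 1702 in ST oil and 2479 to 3034 with tamoxifen, and erythroblast markers to 711 to 909 and 1044 to 1392. The part of these in the 4 genes that fell was not tested.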

How the data were processed

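RNA was measured in 18 libraries of sorted bone marrow cells. Picopure was the extraction kit and Ovation RNA-Seq System V2 the amplification kit, per the labels' protocols. The submitters' processing notes name cutadapt, Picard, RSEM 1.17, limma and the build NCBIM37. The deposited values are a normalised signal, called normalised CPM here. Each is a whole number of reads plus 0.5 times a constant of its library: 100% of values came out whole within 0.001, and these recovered reads went into edgeR 4.0.16 and DESeq2 1.42.0 as alternatives.

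From the values, log2(value + 1) was tested with limma 3.58.1 in R 4.3.3 (trend and robust settings, 18 libraries, 1 mean per group, 12 residual degrees of freedom). P values were adjusted by Benjamini-Hochberg over 14419 genes, and an adjusted p under 0.05 was called. Fold changes are on that scale and come out too small for low genes. The filter (a value of 1 in 3 libraries) removed 0 genes. Nonoverlap means that all 3 libraries of 1 group lay beyond all 3 of the other. Shares of all genes called by DESeq2 are of those it gave an adjusted p. The labels do not say whether 1 library is 1 mouse, nor give sort gates. P values measure the spread between these libraries. The fit was tested on simulated data.

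Genes named were, per population or tamoxifen comparison, the 8 in each direction with the smallest p among those called, or the 3 with the smallest p where fewer than 3 were called. In differences of effects, 1 was named. The stalk, paralog pairs and a few fixed genes were also named, and from each list the 3 with the smallest p. A few genes that this rule names are not reported here by name. Members and lists were chosen with earlier results of these data known. Transcript lengths and GC are from GENCODE on GRCm38, another build than that of the files. Each is a median over annotated transcripts of the gene. Other scalings, pseudocounts, filters, fits and left-out libraries were tried as alternatives. The removal of the length and GC trend (splines with 5 degrees of freedom), and the population comparisons in tamoxifen libraries, were chosen after seeing the data.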

Additional observations from a re-analysis of the deposited data

How the results depend on the processing

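Depth, at 2728800 to 5279821 reads per library, limited Rps4y2 and Rps19bp1 most. No direction of a called value reversed under any alternative run. For counts, medians and summed levels, 630 values under alternatives stayed close to the reported ones and 55 moved. The cause of those that moved was not tested, apart from fewer libraries where some were left out.

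In DESeq2 the genes called numbered 4 with tamoxifen in LT cells (6.47% of all genes) and 8 in ST cells (11.2%). It called 5 for the ST minus LT effect (1.54%) and 5 for the ST minus MPP effect (3.95%). Without trend and robust settings limma called 0 with tamoxifen in ST cells, where 6.71% of all genes were called. Quantile normalisation gave 1 for the ST minus LT effect (0.0485% of all genes) and a median of -0.13 for MPP against LT. Scaling to the sum of the other genes shifted the median of all genes by -0.16 to 0.02 over the 9 comparisons, and gave medians of -0.62 for the ST minus MPP effect, -0.12 for MPP against LT and -1.17 for MPP against ST. Scaling without mitochondrially encoded genes gave 1 for the ST minus LT effect (0.0624% of all genes) and a median of -0.0699 for MPP against LT.

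Fits of only the groups compared gave 13 with tamoxifen in ST cells (7.73% of all genes called). For the ST minus MPP effect they gave 3 (0.25%) and for MPP against LT 12 (23.9%). Library weights gave 5 with tamoxifen in LT cells (1.63% of all genes called) and 7 for the ST minus LT effect (0.687%). They gave 3 for the ST minus MPP effect (1.07%) and 1 for MPP against LT (24.7%). With replicate numbers as a block, 1 gene was called for the ST minus LT effect (0.236% of all genes) and 5 with tamoxifen in ST cells. Libraries of the same number within a population correlated at -0.0326 to 0.126 in their deviations, and 3 of 9 matched their own number best. These values showed no pairing by number, but they cannot say whether a number marks a shared mouse or day.

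With the length and GC trend removed, the median was -0.0788 with tamoxifen in ST cells, -0.20 for the ST minus MPP effect and 0.10 for MPP against LT. The ST minus LT effect then had 1 gene called (0.125% of all genes). ST against LT had 41 (median 0.57, 19.3% of all genes) and MPP against ST 39 (median -0.54, 21.1%). In LT cells with tamoxifen, with library A also left out, 3 were called (0.291% of all genes). The tamoxifen libraries gave 1 for MPP against LT (17.7% of all genes called) and 37 for MPP against ST (median -0.54, 19.6%). Without LT tamoxifen library A they gave 32 for ST against LT (median 0.35, 18.9%).

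Leaving out 1 library at a time gave 0 to 4 genes with tamoxifen in LT cells and 0 to 25 in ST cells. The ST minus LT effect ran from 0 to 22 genes, with medians of -0.65 to -0.0880, and the ST minus MPP effect from 0 to 11 genes. The LT minus MPP effect had medians of -0.37 to 0.17. MPP against LT ran from 0 to 1 gene, with medians of -0.0420 to 0.0624. The highest counts of each, apart from LT cells, where leaving out library A or B gave 4, came without LT tamoxifen library A.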
